A study of Homo sapiens with 136 samples.

Results

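ATF4 and CHOP, the protein encoded by DDIT3, are transcription factors of the integrated stress response, and the 10 genes described here are ATF4, DDIT3, ATF3, NUPR1, TRIB3, PPP1R15A, CHAC1, DDIT4, SESN2 and ADM2. They were taken by symbol from the 25435 gene symbols of a count table, all 10 were found, and all 10 passed the filter on low counts in both cell lines. RNA was measured by PLATE-Seq, in which cells are lysed in multi-well plates and each well becomes a barcoded RNA sequencing library, in PANC-1 and AsPC-1 cells, established human lines from pancreatic ductal adenocarcinoma.

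All cells received an autophagy inhibitor. In each line, 14 kinase inhibitors of the RAF, MEK and ERK cascade were each combined with a Vps34 inhibitor (Compound 19, against the lipid kinase that starts autophagosome formation) or with hydroxychloroquine (HCQ, a lysosomotropic compound that blocks degradation in lysosomes). RAF was the target of PLX8394, GDC-0879, RAF709, dabrafenib and sorafenib, MEK of refametinib, selumetinib, binimetinib, cobimetinib and trametinib, and ERK of ravoxertinib, AZD0364, SCH772984 and ulixertinib. Each of the 28 combinations per line had 2 libraries, 1 on plate A and 1 on plate B of that line. Each autophagy inhibitor alone had 6 libraries per line, 3 on each plate. By the sample titles, no plate held both lines. Cells stood for 24 h before a treatment of 24 h, and each drug was given at the dose that left 80% of cells viable after 48 h of that drug by itself, so doses differ between drugs, and the sources used here give no concentrations. No group was left untreated and no group had a kinase inhibitor without an autophagy inhibitor. Effects below are therefore differences from the same autophagy inhibitor alone, between the autophagy inhibitors, or between drugs of a class. Differences between the lines compare such effects. Line and plate cannot be told apart, so levels of the lines were not tested against each other. The dose of a drug may also differ between the lines. The labels do not say whether libraries of a group came from separate cultures, and p-values then measure the spread between these libraries, which may be technical.

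In the integrated stress response, kinases that sense amino acid shortage, unfolded protein in the endoplasmic reticulum, haem loss or viral RNA phosphorylate the translation factor eIF2α, which lowers protein synthesis and raises translation of ATF4 messenger RNA. ATF4 then drives genes of amino acid supply and further regulators, among them CHOP, ATF3 and NUPR1. TRIB3, a pseudokinase, and PPP1R15A, known as GADD34, the subunit that directs a phosphatase to eIF2α, feed back on the response. CHAC1 degrades glutathione, DDIT4 and SESN2 restrain the growth kinase mTORC1, and ADM2 encodes a secreted peptide of the calcitonin family. ATF4 is controlled largely at translation, so the levels of its messenger RNA given here are not levels of the protein.

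The promoters of 4 of these genes held a short match to the letters such factors bind, and these stretches are shown because they differ in the kind of element. RefSeq promoter windows of 300 bases around the gene start (GRCh38.p14) were matched for 9 of the 10 genes, all but NUPR1. Capitals mark the match, and each stretch is written 5′ to 3′ on the strand of its gene. Distances are counted from the RefSeq start of the window, which lies at position 40953471 for CHAC1, 212565407 for ATF3, 48872421 for PPP1R15A and 57520514 for DDIT3, inside the wider gene spans given below, so that the stretches of CHAC1 and DDIT3 also lie inside those spans.
CHAC1 (chr15:40953251-40953280, plus strand, 209 to 202 bases before the start, a C/EBP-ATF response element core read on the opposite strand): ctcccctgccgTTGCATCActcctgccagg
ATF3 (chr1:212565205-212565234, plus strand, 191 to 184 bases before the start, a C/EBP-ATF response element core): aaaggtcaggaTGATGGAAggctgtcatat
PPP1R15A (chr19:48872352-48872381, plus strand, 58 to 51 bases before the start, a cAMP response element): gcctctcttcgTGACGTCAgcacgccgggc
DDIT3 (chr12:57520738-57520764, minus strand, 241 to 235 bases before the start, an AP-1 element): gcgcgcgcaTGACTCAcccacctcctc
Both strands were searched. Shares are of the 27305 genes with a promoter window, each counted if any of its windows held the match. The response element core TGATGNAA stood in 4.46% of these genes, its form TGATGCAA, which CHAC1 holds, in 1.08%, the cAMP response element TGACGTCA in 2.25% and the AP-1 element TGACTCA in 6.05%. A match describes letters in this window and shows no binding.

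In GRCh38, DDIT3 lies at chr12:57516588-57521737 on the minus strand and overlaps MARS1 (methionyl-tRNA synthetase) and MBD6 on the opposite strand, with median levels of 155 CPM and 10.7 CPM in PANC-1 and 42.3 CPM and 8.02 CPM in AsPC-1. Levels in CPM are counts divided by the library's total and put on a common scale. The sources used here do not say whether the counting used strand, so the values of both neighbours stand beside the calls on DDIT3 in each line below. The gene spans are those of GENCODE. ATF4 lies at chr22:39519695-39522685, ATF3 at chr1:212565334-212620777 and CHAC1 at chr15:40952962-40956519. TRIB3 lies at chr20:362835-397559, PPP1R15A at chr19:48872392-48876057 and SESN2 at chr1:28259527-28282491. DDIT4 lies at chr10:72273920-72276036, ADM2 at chr22:50481556-50486440 and NUPR1, on the minus strand like DDIT3, at chr16:28532708-28539174.

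Library totals ran from 1419228 to 5871860 counts. At this depth ATF4 had a median of 721 counts per library in PANC-1 and 384.5 in AsPC-1. CHAC1, ATF3 and NUPR1 had medians of 10, 12.5 and 11 counts in AsPC-1, so small changes of these 3 genes are not resolved there. ATF3 had a median of 11 counts in PANC-1 too, where the same limit holds for it. The sum of 5 epithelial markers, EPCAM among them, was 331 to 848 CPM in PANC-1 and 2540 to 7690 CPM in AsPC-1, and the summed immune and endothelial markers stayed at or below 11.9 CPM in every library. Fibroblast markers summed to 24.9 to 121 CPM in PANC-1 and 43.3 to 281 CPM in AsPC-1. In each line, SPRY4, an ERK-dependent feedback gene, fell with MEK inhibitors (−3.27 in PANC-1, −2.84 in AsPC-1) and with ERK inhibitors (−3.29 and −3.39) as log2 fold changes over the autophagy inhibitors alone.

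The 2 autophagy inhibitors were first compared alone. In PANC-1, 6 of the 10 genes were higher with the Vps34 inhibitor than with HCQ, namely ATF4, NUPR1, TRIB3, CHAC1, SESN2 and ADM2, and none was lower (edgeR quasi-likelihood test, Benjamini-Hochberg adjusted over all genes tested at 0.05). Of all genes tested, 1.31% were called higher, and the median log2 fold change was 1.00 over the 10 genes against 0.005 over all genes. At an unadjusted p under 0.05, 1 gene was lower, PPP1R15A, and DESeq2 called none lower. In AsPC-1 the same comparison called 3 genes lower with the Vps34 inhibitor, DDIT3, SESN2 and PPP1R15A, and none higher (also none by DESeq2 or at an unadjusted p under 0.05), beside 2.72% of all genes called lower and 3.21% called higher. The median over the 10 genes was −0.50 there, against 0.008 over all genes. In bulk RNA, fewer cells with a transcript and less of it per cell cannot be told apart.

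**Figure D1:**
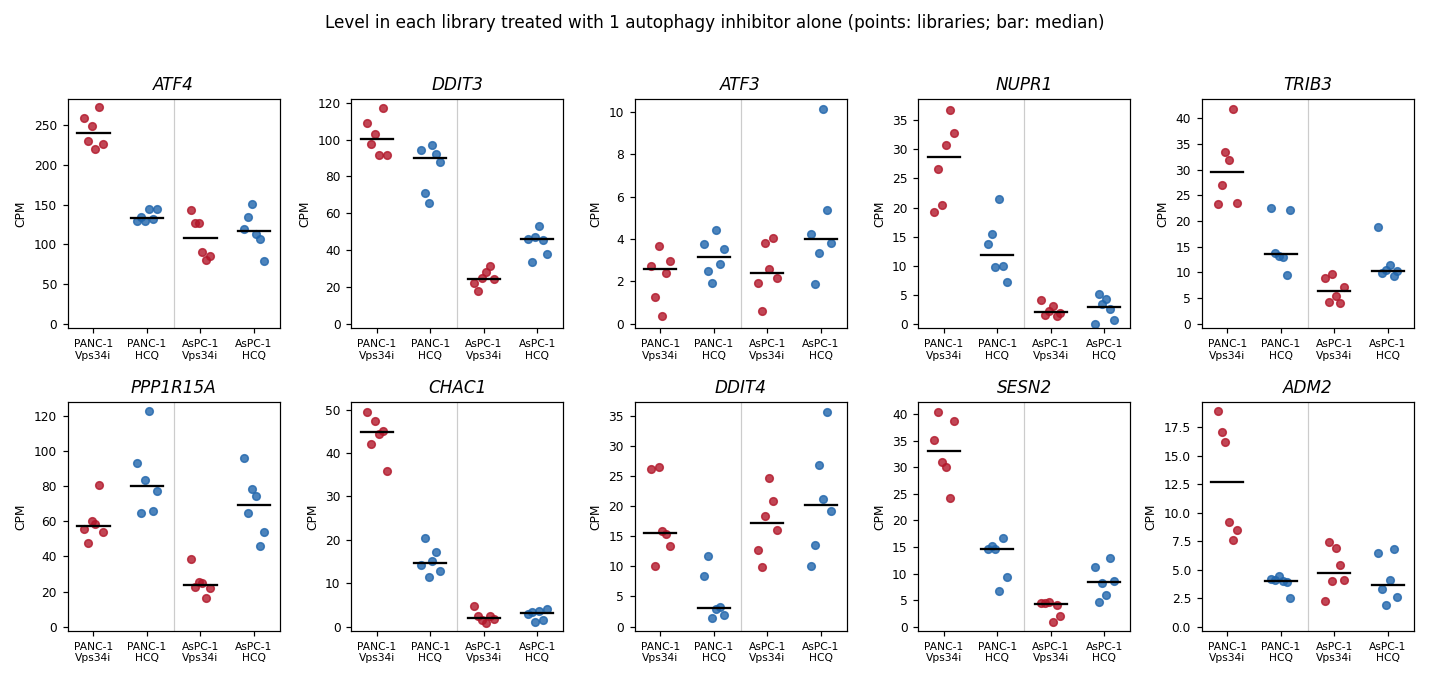
Level of each of the 10 genes in CPM (vertical axes) in every library treated with the Vps34 inhibitor (red) or HCQ (blue) alone, in PANC-1 (left pair) and AsPC-1 (right pair); points are libraries (6 per group) and bars medians. In PANC-1 the red points of ATF4, TRIB3, CHAC1, SESN2 and ADM2 lie above all blue points, and in AsPC-1 the red points of DDIT3, PPP1R15A and SESN2 lie below all blue points.

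Among the regulators in PANC-1, ATF4 had 219.8, 239.5 and 273 CPM with the Vps34 inhibitor, as the lowest, median and highest of 6 libraries, against 129.6, 132.8 and 143.8 CPM with HCQ. Every library with the Vps34 inhibitor lay above every library with HCQ, a log2 fold change of 0.83 ± 0.09 (SE, adjusted p = 1.97e-08). NUPR1, a small chromatin-associated stress protein, had 19.2, 28.8 and 36.8 CPM with the Vps34 inhibitor against 7.26, 11.9 and 21.5 CPM with HCQ. Its groups overlapped at their edges and the difference was 1.08 ± 0.20 (adjusted p = 0.000884). DDIT3 had 91.4, 100.4 and 117 CPM with the Vps34 inhibitor against 65.4, 90.0 and 97.2 CPM with HCQ, a difference of 0.25 ± 0.10 that did not pass (adjusted p = 0.208), while its neighbour MARS1 rose by 0.43 ± 0.11 (adjusted p = 0.0201) and MBD6 did not pass (0.37 ± 0.19, adjusted p = 0.379). ATF3 did not pass either, at −0.44 ± 0.29 (adjusted p = 0.539), with medians of 2.58 CPM with the Vps34 inhibitor and 3.18 CPM with HCQ.

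Of the feedback genes in PANC-1, TRIB3 had 23.4, 29.5 and 41.8 CPM with the Vps34 inhibitor against 9.56, 13.5 and 22.6 CPM with HCQ, with no overlap and a log2 fold change of 0.92 ± 0.18 (adjusted p = 0.000942). PPP1R15A had 47.5, 57.3 and 80.6 CPM with the Vps34 inhibitor against 65.0, 80.5 and 123 CPM with HCQ, with overlap, and did not pass at −0.52 ± 0.18 (adjusted p = 0.117). Of the targets, CHAC1 had 35.8, 44.8 and 49.4 CPM with the Vps34 inhibitor against 11.4, 14.7 and 20.5 CPM with HCQ (1.52 ± 0.16, adjusted p = 3.74e-09). SESN2 had 24.3, 33.2 and 40.4 CPM with the Vps34 inhibitor against 6.66, 14.6 and 16.6 CPM with HCQ (1.38 ± 0.23, adjusted p = 8.84e-05). ADM2 had 7.63, 12.7 and 18.9 CPM with the Vps34 inhibitor against 2.49, 4.02 and 4.45 CPM with HCQ (1.69 ± 0.20, adjusted p = 1.32e-07). For these 3 targets the groups did not overlap. DDIT4, with the largest standard error of the 10, had 10.0, 15.5 and 26.5 CPM with the Vps34 inhibitor against 1.48, 3.04 and 11.7 CPM with HCQ, and its difference of 1.91 ± 0.57 did not pass (adjusted p = 0.0633).

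In AsPC-1, ATF4 itself was not separated, with 80.9, 108.6 and 143 CPM with the Vps34 inhibitor and 79.7, 117 and 150.6 CPM with HCQ (−0.05 ± 0.12, adjusted p = 0.906). DDIT3 had 17.9, 24.6 and 31.2 CPM with the Vps34 inhibitor against 33.7, 45.9 and 53.2 CPM with HCQ, with no overlap, and fell by 0.76 on the log2 scale (SE 0.17, adjusted p = 0.00177). Neither MARS1 (−0.12 ± 0.16, adjusted p = 0.772) nor MBD6 (0.13 ± 0.30, adjusted p = 0.895) passed. PPP1R15A had 16.4, 23.5 and 38.8 CPM with the Vps34 inhibitor against 45.8, 69.6 and 96.0 CPM with HCQ, again with no overlap (−1.39 ± 0.20, adjusted p = 1.74e-06). SESN2 had 0.859, 4.23 and 4.59 CPM with the Vps34 inhibitor against 4.68, 8.37 and 13.01 CPM with HCQ, groups that nearly touched (−1.28 ± 0.34, adjusted p = 0.0121). TRIB3 (−0.74 ± 0.26, adjusted p = 0.0875), ATF3 (−0.86 ± 0.44, adjusted p = 0.295), CHAC1 (−0.26 ± 0.47), DDIT4 (−0.22 ± 0.34), NUPR1 (−0.05 ± 0.54) and ADM2 (0.31 ± 0.31) did not pass. In AsPC-1 the share of counts from 13 mitochondrial messenger RNAs also differed between these groups without overlap. It was 27.9% to 30% with the Vps34 inhibitor against 23.8% to 27.2% with HCQ. Of 5 epithelial markers 3 were lower with the Vps34 inhibitor, among them EPCAM (−0.34 ± 0.09), beside 2.72% of all genes. Their part in these results was not tested. In PANC-1 the mitochondrial share was 18.3% to 22.2% with the Vps34 inhibitor and 18.2% to 21.5% with HCQ.

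Within plate A and within plate B, each of the 9 calls kept its sign. ATF4 in PANC-1 differed by 0.87 on plate A and 0.79 on plate B, CHAC1 by 1.56 and 1.49, and PPP1R15A in AsPC-1 by −1.40 on each. The fits of a single plate held all 34 libraries of that plate and line. They took the drugs of a class as replicates, so differences between drugs counted as spread. The alone groups had 3 libraries each. None of the 6 genes passed in PANC-1 on either plate, and 1 of the 3 genes passed in AsPC-1 on each.

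The comparison of the autophagy inhibitors was repeated under each class of kinase inhibitor, in libraries that share none with the groups above. In PANC-1, ATF4, DDIT3, NUPR1, TRIB3, CHAC1, SESN2 and ADM2 were higher with the Vps34 inhibitor than with HCQ under all 3 classes, so that DDIT3 passed here (0.60 ± 0.08 under RAF, 0.56 ± 0.08 under MEK and 0.58 ± 0.09 under ERK inhibitors). MARS1 was also higher under each, by 0.49 ± 0.09, 0.37 ± 0.09 and 0.51 ± 0.10, and MBD6 did not pass (−0.10 to 0.05). Counting ATF3 under RAF inhibitors (0.96 ± 0.27) and DDIT4 under MEK inhibitors (1.27 ± 0.39, adjusted p = 0.0452), 8, 8 and 7 of the 10 genes were higher under RAF, MEK and ERK inhibitors, beside 3.46%, 3.0% and 2.01% of all genes. CHAC1 differed most of the genes under RAF inhibitors, at 1.97 ± 0.12. PPP1R15A did not pass under any class, at −0.24 to −0.15.

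In AsPC-1, DDIT3, ATF3, TRIB3 and PPP1R15A were lower with the Vps34 inhibitor under all 3 classes, and SESN2 was lower under RAF and MEK inhibitors, which makes 5, 5 and 4 of the 10 genes beside 6.8%, 6.79% and 6.58% of all genes. None was higher. DDIT3 fell by 0.88 on the log2 scale under RAF, by 1.18 under MEK and by 1.19 under ERK inhibitors, and PPP1R15A by 1.64, 1.13 and 1.58. MARS1 fell under ERK inhibitors, by 0.43 (adjusted p = 0.0358), and did not pass under RAF (−0.04) or MEK inhibitors (−0.22), and MBD6 did not pass under any class (−0.41 to 0.21). ATF3 fell by 2.39 under RAF inhibitors (SE 0.39, adjusted p = 8.29e-06) and by 1.09 and 1.25 under MEK and ERK inhibitors. ATF4 did not pass under any class, at −0.23 to 0.18, and neither did CHAC1, DDIT4, NUPR1 or ADM2.

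**Figure D2:**
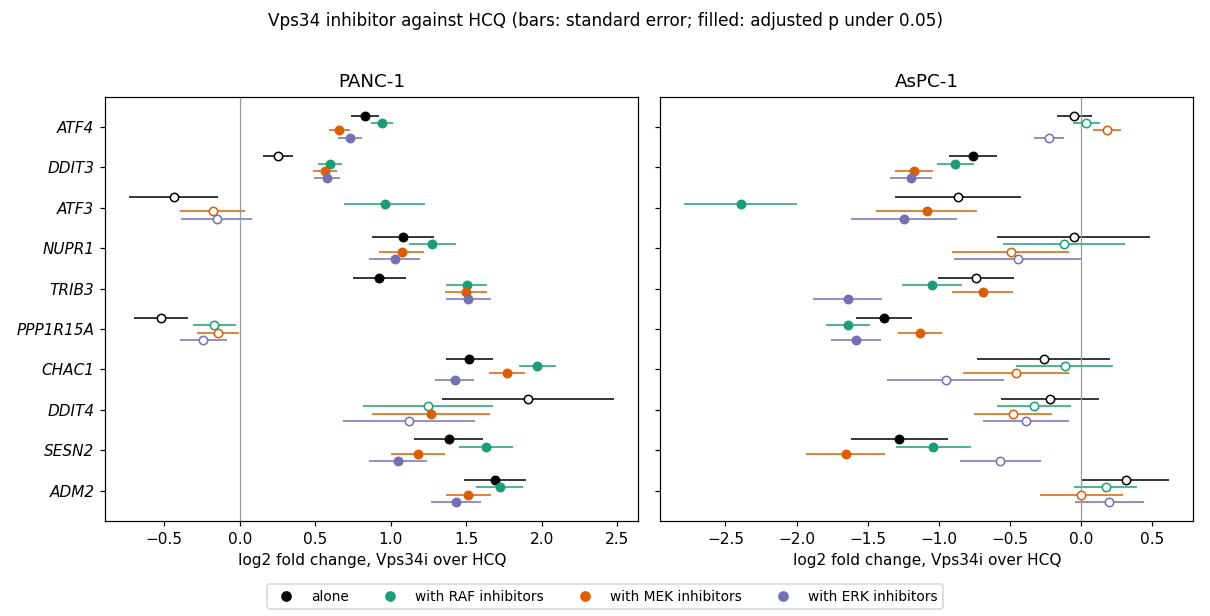
Log2 fold change of the Vps34 inhibitor over HCQ (horizontal axis, ± standard error) for each gene in PANC-1 (left) and AsPC-1 (right), alone (black) and with RAF (green), MEK (orange) or ERK (purple) inhibitors; filled points passed an adjusted p of 0.05. In PANC-1 most points lie right of zero, with CHAC1 at 1.42 to 1.97, while in AsPC-1 DDIT3, TRIB3, PPP1R15A, ATF3 and SESN2 lie left of it and ATF4 stays near it.

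The difference between the lines was itself tested in a fit of both. For the Vps34 inhibitor against HCQ alone, the effect in PANC-1 exceeded that in AsPC-1 for 6 of the 10 genes, beside 1.17% of all genes. They were SESN2 (by 2.66 ± 0.39, adjusted p = 2.01e-06), CHAC1 (1.80 ± 0.40), TRIB3 (1.66 ± 0.31), ADM2 (1.38 ± 0.36), DDIT3 (1.02 ± 0.20) and ATF4 (0.88 ± 0.16, adjusted p = 0.000113). SESN2 went opposite ways, higher with the Vps34 inhibitor in PANC-1 and lower in AsPC-1. PPP1R15A (0.87 ± 0.28, adjusted p = 0.0702), DDIT4 (2.13 ± 0.66, adjusted p = 0.0605), NUPR1 and ATF3 did not pass this test.

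Kinase inhibitors were then set against the same autophagy inhibitor alone, first by class. In PANC-1, MEK inhibitors raised 6 of the 10 genes, DDIT3, ATF3, NUPR1, CHAC1, DDIT4 and ADM2, beside 7.9% of all genes, and ERK inhibitors raised 8, these 6 with ATF4 and TRIB3, beside 5.45% of all genes. RAF inhibitors raised none, beside 0.103% of all genes, where DESeq2 also called none and 3 of the 10, ATF4, NUPR1 and ADM2, were higher at an unadjusted p under 0.05. In AsPC-1, MEK inhibitors raised only ADM2 of the 10, beside 12.9% of all genes, ERK inhibitors raised ATF3, SESN2 and ADM2, beside 13.7%, and RAF inhibitors raised ATF4, DDIT3 and ADM2, beside 3.75%. Averaged over both autophagy inhibitors, no class lowered any of the 10 in either line (also none by DESeq2; at an unadjusted p under 0.05, ATF3 with RAF and PPP1R15A with MEK inhibitors in PANC-1). With HCQ, RAF inhibitors lowered ATF3 in PANC-1 by 1.37 on the log2 scale (SE 0.28, adjusted p = 0.0072), beside 0.348% of all genes, while ATF3 did not pass with RAF inhibitors and the Vps34 inhibitor (0.03 ± 0.30), nor did the difference between these effects (1.40 ± 0.40, adjusted p = 0.695). MARS1 rose with ERK inhibitors in PANC-1 (0.34 ± 0.07) and did not pass with MEK inhibitors there (0.19 ± 0.07, adjusted p = 0.0541) or with RAF inhibitors in AsPC-1 (0.10 ± 0.10), and MBD6 did not pass in these comparisons (0.32, 0.34 and 0.11). The ATF3 call with MEK inhibitors in PANC-1 (0.54 ± 0.18, adjusted p = 0.0291) was lost when Vps34 inhibitor replicate 2 or 4 or HCQ replicate 3 of the alone groups was left out, with 0.44 at the lowest.

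Markers of fibroblasts moved in the same comparisons. Of all genes in PANC-1, 7.9% were called higher with MEK and 5.45% with ERK inhibitors. In PANC-1 the 2 of 6 fibroblast markers that passed the filter on low counts, both collagens, were higher with MEK inhibitors (COL1A1 by 0.59 ± 0.08 and COL3A1 by 0.74 ± 0.25) and with ERK inhibitors (0.48 ± 0.09 and 0.76 ± 0.26). The sum over all 6 was 53.9 to 121 CPM with MEK inhibitors and 59.6 to 99.9 CPM with ERK inhibitors, against 36.8 to 65.3 CPM in the alone libraries, with LUM at 0 under ERK inhibitors and PDGFRB at 0 in the alone libraries. Epithelial markers summed to 331 to 652 CPM with MEK and 360 to 554 CPM with ERK inhibitors, against 578 to 757 CPM alone. Of the 5, only KRT18 was called lower, by 0.91 with MEK and 0.89 with ERK inhibitors on the log2 scale. In these comparisons 10.6% and 8.68% of all genes were called lower. KRT19 was higher with MEK inhibitors, by 0.37 ± 0.09. The median over the 5 was −0.02 with MEK and −0.07 with ERK inhibitors. In AsPC-1, 4 of 5 epithelial markers were higher with MEK and with ERK inhibitors, beside 12.9% and 13.7% of all genes. KRT8 rose by 0.84 ± 0.06 and 0.87 ± 0.07. The 5 summed to 4340 to 7690 CPM and 4790 to 6500 CPM, against 2920 to 4020 CPM alone. Fibroblast markers summed there to 73.7 to 246 CPM with MEK and 88.0 to 281 CPM with ERK inhibitors, against 43.3 to 85.3 CPM alone, and LUM rose by 1.27 ± 0.10 and 1.43 ± 0.11, with PDGFRB at 0 under MEK inhibitors. With RAF inhibitors in AsPC-1, 2 of 5 epithelial markers were higher, KRT19 and KRT18 by 0.17 and 0.14, beside 3.75% of all genes. LUM rose there by 0.45 ± 0.10. The part of these markers in the results was not tested.

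In single combinations against the same autophagy inhibitor alone, 49 of 280 tests of these genes were called higher and 2 lower in PANC-1, where 1.17% of tests over all genes were called higher and 1.3% lower. In AsPC-1, 22 of 280 were called higher and 2 lower, beside 3.39% and 2.93% over all genes. Averaged over both autophagy inhibitors, 33 of 140 tests were called higher and none lower in PANC-1, beside 2.6% higher and 3.11% lower over all genes, and 24 of 140 higher and 2 lower in AsPC-1, beside 6.22% and 6.06%. The 2 lower calls were ATF4 with binimetinib and TRIB3 with RAF709. In PANC-1, 24 of the 33 came from trametinib, ulixertinib and SCH772984, and in AsPC-1 12 of the 24 were ADM2. All comparisons with the autophagy inhibitors alone within a line share the same 12 libraries.

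**Figure D3:**
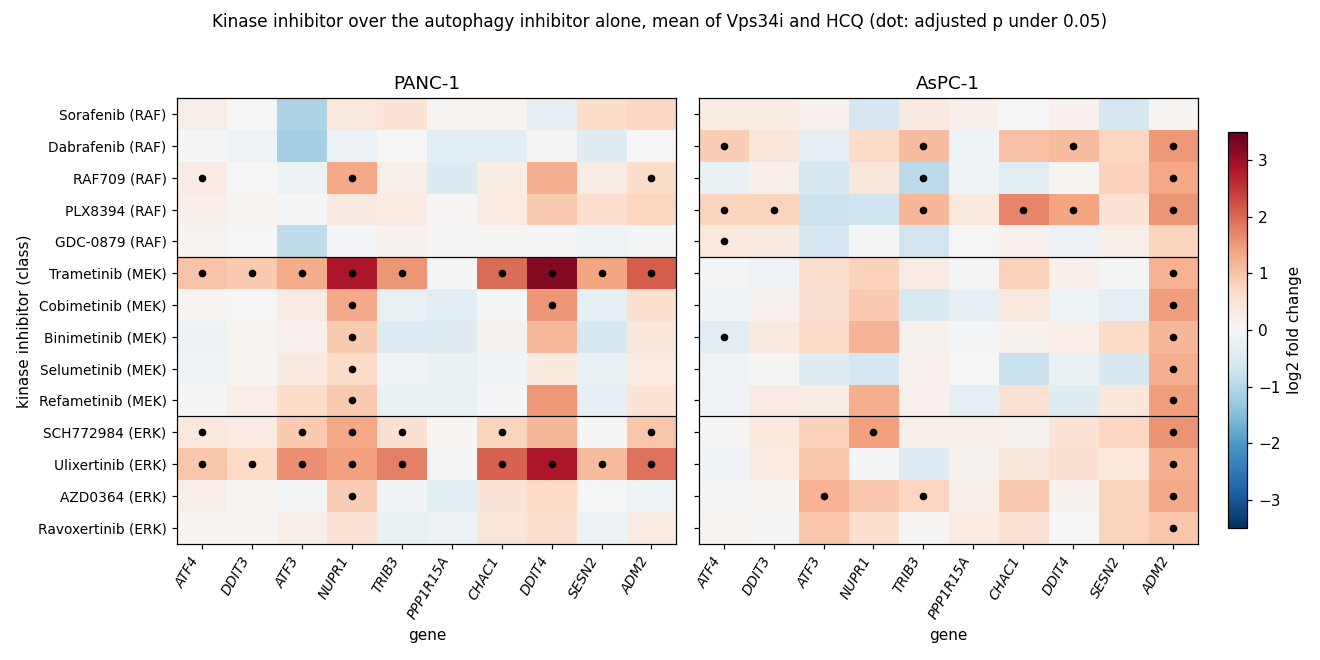
Log2 fold change (colour) of each kinase inhibitor over the autophagy inhibitors alone, averaged over Vps34 inhibitor and HCQ, for the 10 genes (columns) and 14 drugs (rows, grouped as RAF, MEK and ERK inhibitors) in PANC-1 (left) and AsPC-1 (right); dots mark an adjusted p under 0.05. In PANC-1 trametinib and ulixertinib each carry 9 dots, and in AsPC-1 the ADM2 column carries 12.

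In PANC-1, trametinib raised 9 of the 10 genes, all but PPP1R15A, beside 6.07% of all genes called higher and 7.49% called lower. Its 10-gene median was 1.46, against −0.01 over all genes. For each of these 9 genes, all 4 trametinib libraries lay above every alone library of the same autophagy inhibitor. ATF4 had 383 and 426 CPM with trametinib and the Vps34 inhibitor, against 219.8 to 273 CPM with the Vps34 inhibitor alone, and 321 and 367 CPM with trametinib and HCQ, against 129.6 to 143.8 CPM with HCQ alone (0.99 ± 0.09, adjusted p = 2.04e-12). DDIT3 had 223 and 220 CPM with trametinib and the Vps34 inhibitor against 91.4 to 117 CPM with the Vps34 inhibitor alone, and 149 and 145 CPM with trametinib and HCQ against 65.4 to 97.2 CPM with HCQ alone (0.91 ± 0.10, adjusted p = 4.9e-10). Its neighbour MARS1 rose by 0.57 ± 0.11, and MBD6 did not pass (0.44 ± 0.19, adjusted p = 0.116). NUPR1 had 166 and 207 CPM with trametinib and the Vps34 inhibitor against 19.2 to 36.8 CPM with the Vps34 inhibitor alone, and 85.2 and 130 CPM with trametinib and HCQ against 7.26 to 21.5 CPM with HCQ alone.

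NUPR1 rose with trametinib by 2.85 ± 0.17 on the log2 scale (adjusted p = 1.11e-17), and ATF3 by 1.30 ± 0.26 (adjusted p = 0.000271), at levels that stayed at or below 8.03 CPM. The feedback gene TRIB3 rose by 1.54 ± 0.16, while PPP1R15A had 80.7 and 72.9 CPM with trametinib and the Vps34 inhibitor against 47.5 to 80.6 CPM with the Vps34 inhibitor alone and 73.4 and 58.4 CPM with trametinib and HCQ against 65.0 to 123 CPM with HCQ alone, and did not pass (−0.04 ± 0.18, adjusted p = 0.922). Of the targets, CHAC1 had 124 and 130 CPM with trametinib and the Vps34 inhibitor against 35.8 to 49.4 CPM with the Vps34 inhibitor alone, and 96.0 and 71.1 CPM with trametinib and HCQ against 11.4 to 20.5 CPM with HCQ alone (1.94 ± 0.14). DDIT4 had 137 and 63.8 CPM with trametinib and the Vps34 inhibitor against 10.0 to 26.5 CPM with the Vps34 inhibitor alone, and 87.4 and 72.2 CPM with trametinib and HCQ against 1.48 to 11.7 CPM with HCQ alone, the largest change of the 10 (3.22 ± 0.45, adjusted p = 1.62e-06). SESN2 rose by 1.38 ± 0.20 and ADM2 by 2.11 ± 0.17.

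Ulixertinib in PANC-1 raised 9 of the 10 genes, all but PPP1R15A, beside 6.72% of all genes called higher and 7.88% called lower, and for these 9 genes all 4 libraries lay above every alone library of the same autophagy inhibitor. ATF4 had 413 and 394 CPM with the Vps34 inhibitor and 362 and 285 CPM with HCQ (0.96 ± 0.09, adjusted p = 5.14e-12). DDIT3 had 165 CPM in both libraries with the Vps34 inhibitor, and 163 and 118 CPM with HCQ (0.68 ± 0.10), while MARS1 rose by 0.67 ± 0.11 and MBD6 by 0.61 ± 0.18 (adjusted p = 0.0173). CHAC1 had 145 and 132 CPM with the Vps34 inhibitor and 91.9 and 88.1 CPM with HCQ (2.07 ± 0.14). TRIB3 rose by 1.76 ± 0.16, ATF3 by 1.60 ± 0.25, NUPR1 by 1.44 ± 0.18, DDIT4 by 2.82 ± 0.46, SESN2 by 1.12 ± 0.21 and ADM2 by 1.90 ± 0.17. PPP1R15A did not pass (−0.08 ± 0.18, adjusted p = 0.838). One DDIT4 library stood lower than its pair, at 24.3 CPM on plate B against 89.6 CPM on plate A with HCQ.

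**Figure D4:**
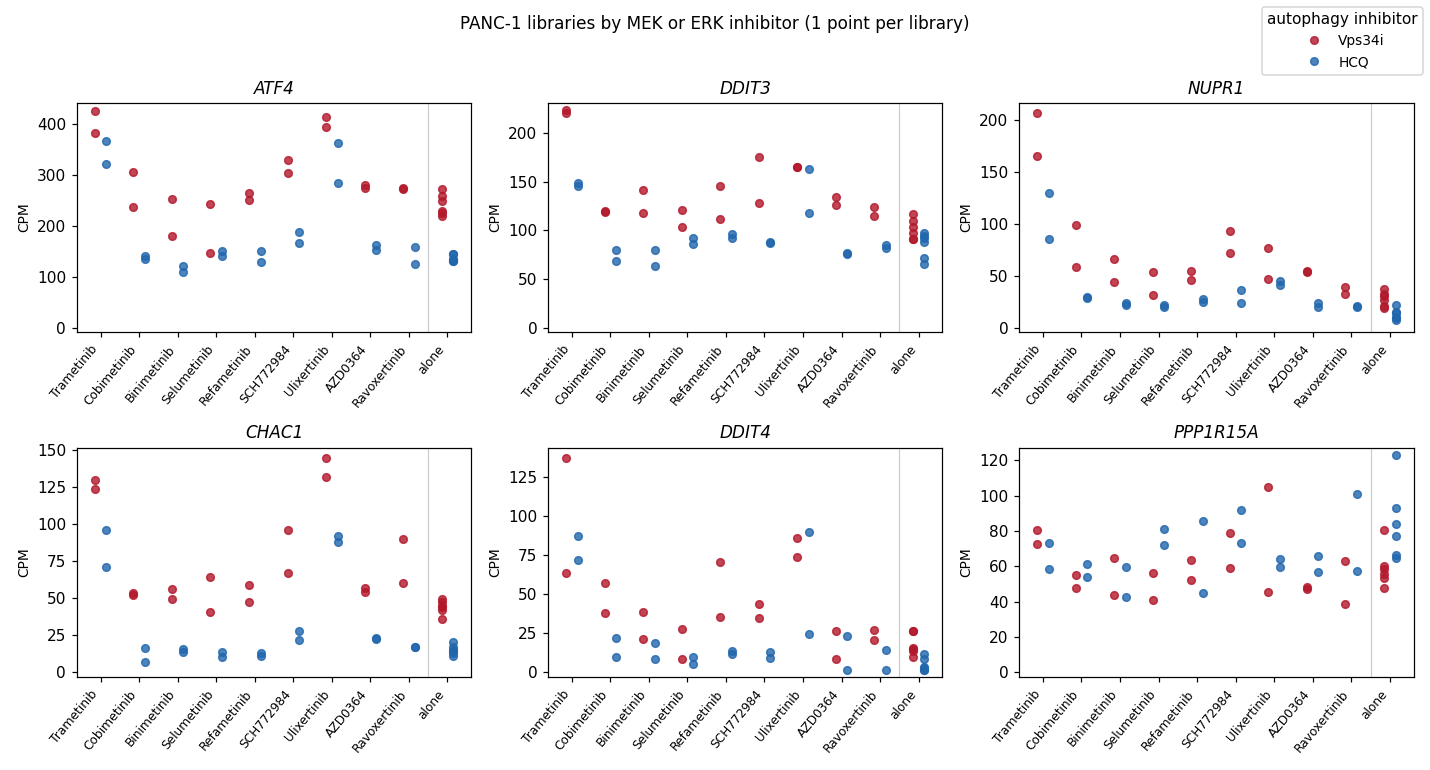
CPM (vertical axes) of 6 genes in each PANC-1 library with a MEK inhibitor (first 5 positions) or an ERK inhibitor (next 4) and, at the right, with an autophagy inhibitor alone; red points have the Vps34 inhibitor and blue points HCQ. For ATF4 and CHAC1 the trametinib and ulixertinib libraries stand above all others of the same autophagy inhibitor, NUPR1 reaches 207 CPM with trametinib, and PPP1R15A shows no such pattern.

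Each drug was also set against the other drugs of its class, at doses that differ between drugs, a comparison that uses no alone library. Trametinib exceeded the other 4 MEK inhibitors for 9 of the 10 genes in PANC-1, beside 1.16% of all genes. TRIB3 differed by 1.81 ± 0.15, SESN2 by 1.74 ± 0.19, NUPR1 by 1.90 ± 0.16 and ATF4 by 1.04 ± 0.08 (adjusted p = 6.12e-13). Ulixertinib exceeded the other 3 ERK inhibitors for 8 genes, beside 3.54% of all genes, with TRIB3 at 1.70 ± 0.16 and CHAC1 at 1.52 ± 0.14. NUPR1 (0.54 ± 0.18, adjusted p = 0.0644) and PPP1R15A (0.10 ± 0.18) did not pass for ulixertinib. MARS1 was higher in both of these comparisons, by 0.48 ± 0.10 with trametinib and 0.44 ± 0.11 with ulixertinib, and MBD6 did not pass (0.15 and 0.36). Ravoxertinib was below the other ERK inhibitors, ulixertinib among them, for ATF4 (−0.44), NUPR1 (−0.74), TRIB3 (−0.98) and CHAC1 (−0.70), beside 0.602% of all genes, and AZD0364 for TRIB3 (−0.79), CHAC1 (−0.63) and ADM2 (−1.21), beside 0.0634%. Against the autophagy inhibitors alone none of these was lower with ravoxertinib or AZD0364, at −0.25 to 0.48 and −0.16 to 0.46. Of 13 ERK output genes, 1 was lower with trametinib than with the other MEK inhibitors, FOSL1 (−0.69 ± 0.10, adjusted p = 1.75e-06), beside 0.887% of all genes, and none with ulixertinib against the other ERK inhibitors, beside 4.15%, where FOSL1 (−0.29 ± 0.10, adjusted p = 0.0536) and DUSP6 (−1.81 ± 0.63, adjusted p = 0.0694) did not pass. None was higher, and SPRY4 differed by −0.32 ± 0.26 (adjusted p = 0.671) with trametinib and −0.12 ± 0.25 (adjusted p = 0.86) with ulixertinib. The mitochondrial share was 17.9% to 21.8% with trametinib and 18.6% to 19.8% with ulixertinib, within or near the 18.2% to 22.2% of the alone groups.

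Fits without these drugs were added after their values were seen. With trametinib left out, the MEK class in PANC-1 raised 3 of the 10 genes, beside 6.57% of all genes: NUPR1 by 0.95 ± 0.13 (adjusted p = 2.97e-07), DDIT4 by 1.13 ± 0.37 (adjusted p = 0.0288) and ADM2 by 0.44 ± 0.13 (adjusted p = 0.0168). DDIT3 (0.10 ± 0.07), ATF3 (0.35 ± 0.19) and CHAC1 (−0.02 ± 0.10) no longer passed. With ulixertinib left out, the ERK class raised 3, beside 4.13% of all genes: NUPR1 by 0.90 ± 0.14, CHAC1 by 0.55 ± 0.11 and ATF4 by 0.21 ± 0.07 (adjusted p = 0.0306). The ERK inhibitor SCH772984 by itself raised ATF4, ATF3, NUPR1, TRIB3, CHAC1 and ADM2, beside 2.87% of all genes, with ATF4 at 0.36 ± 0.09 and NUPR1 at 1.36 ± 0.18.

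NUPR1 was the gene of the 10 most often raised in PANC-1, with 9 of 14 drugs. These were all 5 MEK inhibitors, from 0.64 ± 0.19 with selumetinib (adjusted p = 0.0448) to 2.85 with trametinib, 3 ERK inhibitors (0.86 to 1.44) and RAF709 (1.31 ± 0.19, adjusted p = 1.2e-06). Ravoxertinib (0.48 ± 0.19, adjusted p = 0.172) and the other 4 RAF inhibitors (−0.22 to 0.36) did not pass. RAF709 was the RAF inhibitor under which SPRY4 fell by 4.11 in PANC-1, while SPRY4 did not pass with the other 4.

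The only call on a difference of a drug's effect between the autophagy inhibitors was ATF3 with sorafenib in PANC-1, at 3.76 ± 0.72 (adjusted p = 0.0231) for the Vps34 inhibitor minus HCQ. ATF3 had 2.30 and 6.51 CPM with sorafenib and the Vps34 inhibitor, against 0.367 to 3.65 CPM with the Vps34 inhibitor alone, and 0.323 and 0.410 CPM with sorafenib and HCQ, against 1.91 to 4.44 CPM with HCQ alone. These low levels rest on few counts. It was 1 call among 140 tests in PANC-1 beside 0.0441% of tests over all genes, and AsPC-1 had none among 140 beside 0.07%. At an unadjusted p under 0.05 there were 30 of 140 such tests in PANC-1 and 13 of 140 in AsPC-1. Over all genes, 428 to 884 of 12627 had such a p per drug in PANC-1, and 583 to 1095 of 12761 in AsPC-1. Few calls here do not show that effects were the same with both autophagy inhibitors.

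In AsPC-1 the 3 drugs that raised ATF4 were RAF inhibitors, dabrafenib, PLX8394 and, by 0.37 ± 0.12 (adjusted p = 0.0331), GDC-0879. Binimetinib, a MEK inhibitor, lowered ATF4 there by 0.36 on the log2 scale (SE 0.13, adjusted p = 0.0387). ATF4 had 102 and 81.8 CPM with binimetinib and the Vps34 inhibitor, and 108 and 52.1 CPM with binimetinib and HCQ. Of these 4 libraries, 1 lay below its alone group over both plates, that at 52.1 CPM on plate B. The libraries at 102 and 108 CPM, on plate A, lay below the alone libraries of that plate, at 127 to 143 CPM with the Vps34 inhibitor and 120 to 151 CPM with HCQ. Dabrafenib raised ATF4, TRIB3, DDIT4 and ADM2, beside 1.44% of all genes, and PLX8394 raised ATF4, DDIT3, TRIB3, CHAC1, DDIT4 and ADM2, beside 0.36%. ATF4 had 288 and 212 CPM with dabrafenib and the Vps34 inhibitor against 80.9 to 143 CPM with the Vps34 inhibitor alone, and 224 and 122 CPM with dabrafenib and HCQ against 79.7 to 150.6 CPM with HCQ alone (0.85 ± 0.12, adjusted p = 4.27e-07). The library on plate B with HCQ, at 122 CPM, lay within the range of its alone group over both plates and above the 79.6 to 113 CPM of HCQ alone on plate B. With PLX8394, ATF4 had 232 and 198 CPM with the Vps34 inhibitor and 191 and 147 CPM with HCQ (0.78 ± 0.12, adjusted p = 3.04e-05), and the plate B library with HCQ again lay within the range over both plates and above that of its own plate. Alone libraries of ATF4 in AsPC-1 were lower on plate B, with 80.8 to 90.2 CPM against 127 to 143 CPM on plate A with the Vps34 inhibitor.

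DDIT3 had 31.7 and 55.7 CPM with PLX8394 and the Vps34 inhibitor against 17.9 to 31.2 CPM with the Vps34 inhibitor alone, and 60.1 and 84.1 CPM with PLX8394 and HCQ against 33.7 to 53.2 CPM with HCQ alone, so that all 4 libraries lay above their alone groups (0.79 ± 0.16, adjusted p = 0.00319). Neither MARS1 (0.48 ± 0.16, adjusted p = 0.188) nor MBD6 (−0.73 ± 0.34, adjusted p = 0.473) passed. CHAC1 had 7.05 and 12.5 CPM with PLX8394 and the Vps34 inhibitor against 0.859 to 4.71 CPM with the Vps34 inhibitor alone, and 7.48 and 5.66 CPM with PLX8394 and HCQ against 1.12 to 4.03 CPM with HCQ alone (1.71 ± 0.41, adjusted p = 0.023). DDIT4 had 26.1 and 45.0 CPM with PLX8394 and the Vps34 inhibitor against 9.84 to 24.6 CPM with the Vps34 inhibitor alone, and 74.8 and 53.3 CPM with PLX8394 and HCQ against 10.1 to 35.6 CPM with HCQ alone (1.38 ± 0.32, adjusted p = 0.0221), a call that was lost without the plate term (1.35 ± 0.35) and without replicate 1 of every combination (1.14 ± 0.30). TRIB3 rose by 1.15 ± 0.25 with PLX8394 and by 1.08 ± 0.24 with dabrafenib, whose 4 libraries all lay above their alone groups, at 17.2 and 11.3 CPM with the Vps34 inhibitor and 29.9 and 20.8 CPM with HCQ. The DDIT4 call with dabrafenib (1.11 ± 0.32, adjusted p = 0.0428) was lost in 11 of 19 alternative analyses, among them those without replicate 1, 2, 5 or 6 of the Vps34 inhibitor alone or replicate 1, 2, 4 or 6 of HCQ alone. With PLX8394, the calls on CHAC1, TRIB3 and ADM2 were each lost in 2 of 19 alternative analyses, that on DDIT3 in 1 and that on ATF4 in none. With dabrafenib, the TRIB3 call was lost in 2, the ADM2 call in 1 and the ATF4 call in none. The lowest total of all libraries, 1419228 counts, belonged to PLX8394 in AsPC-1. SPRY4 fell with dabrafenib (−1.02 ± 0.18) and did not pass with PLX8394 (0.19 ± 0.17, adjusted p = 0.789).

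**Figure D5:**
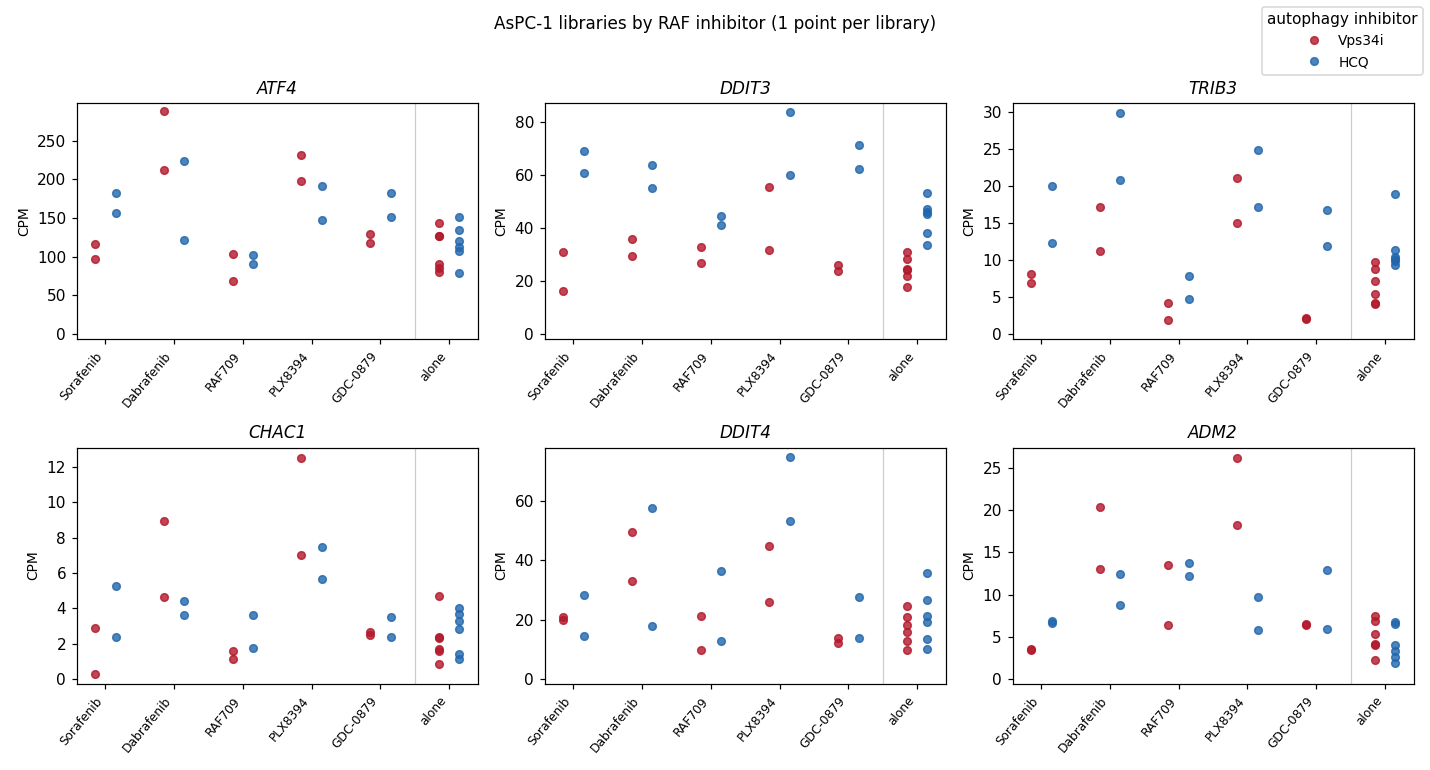
CPM (vertical axes) of 6 genes in each AsPC-1 library with a RAF inhibitor (first 5 positions) and, at the right, with an autophagy inhibitor alone; red points have the Vps34 inhibitor and blue points HCQ. All 4 PLX8394 libraries lie above their alone groups for DDIT3, CHAC1 and DDIT4, and RAF709 libraries of ATF4 do not exceed 103 CPM.

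Against the other 4 RAF inhibitors in AsPC-1, dabrafenib was higher for ATF4 (0.56 ± 0.11) and TRIB3 (1.11 ± 0.24), beside 0.235% of all genes, and PLX8394 for ATF4 (0.47 ± 0.11), DDIT3 (0.50 ± 0.16), TRIB3 (1.20 ± 0.24), CHAC1 (1.51 ± 0.40) and DDIT4 (1.09 ± 0.31), beside 2.58%. MARS1 (0.48 ± 0.15, adjusted p = 0.0518) and MBD6 (−1.04 ± 0.33, adjusted p = 0.0535) did not pass between PLX8394 and the other RAF inhibitors. RAF709 was lower for ATF4 (−0.81 ± 0.13, adjusted p = 3.96e-06) and TRIB3 (−1.40 ± 0.29), beside 2.5% of all genes, GDC-0879 was lower for TRIB3 (−1.08), beside 1.28%, and sorafenib for SESN2 (−1.19) and ADM2 (−1.22), beside 1.32%. Against the alone groups, RAF709 lowered TRIB3 by 0.93 on the log2 scale (adjusted p = 0.0254). With dabrafenib and PLX8394 left out, a fit added after seeing the values, the RAF class raised ADM2 alone of the 10 (0.74 ± 0.21, adjusted p = 0.0122), beside 5.23% of all genes, and ATF4 stood at 0.13 ± 0.09.

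ADM2 was the gene of the 10 most often raised in AsPC-1, with 12 of 14 drugs, from 0.97 ± 0.29 with ravoxertinib to 1.56 ± 0.27 with SCH772984. GDC-0879 (0.77 ± 0.28, adjusted p = 0.0667) and sorafenib (0.08 ± 0.31) did not pass. The 10 libraries with a MEK inhibitor and HCQ had 7.80, 12.2 and 16.3 CPM as lowest, median and highest, all above the 1.86, 3.67 and 6.79 CPM of HCQ alone. With the Vps34 inhibitor, MEK inhibitors gave 6.18, 10.1 and 17.7 CPM, and 9 of 10 libraries lay above the highest of 2.22, 4.74 and 7.46 CPM with the Vps34 inhibitor alone. PPP1R15A was not called with any of the 14 drugs in either line (at an unadjusted p under 0.05, with 4 drugs in PANC-1 and 0 in AsPC-1), and its log2 fold changes ran from −0.49 to 0.07 in PANC-1 and from −0.33 to 0.35 in AsPC-1.

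Single drugs also differed between the lines, where the dose of a drug may differ and no plate was shared, so that line, dose and plate cannot be told apart. Trametinib raised 6 of the 10 genes more in PANC-1 than in AsPC-1, beside 2.02% of all genes: DDIT4 (by 3.05 ± 0.62), NUPR1 (2.04 ± 0.47), SESN2 (1.42 ± 0.39), TRIB3 (1.25 ± 0.30), DDIT3 (1.04 ± 0.20) and ATF4 (1.04 ± 0.16, adjusted p = 9.08e-07). Ulixertinib did so for 4, beside 3.55%: DDIT4 (2.29 ± 0.62), TRIB3 (2.24 ± 0.32), CHAC1 (1.67 ± 0.39) and ATF4 (1.06 ± 0.16, adjusted p = 3.28e-07). ATF4 in AsPC-1 stood at −0.04 with trametinib and −0.09 with ulixertinib. The effect of dabrafenib was lower in PANC-1 than in AsPC-1 for 3 genes, beside 0.279% of all genes: ADM2 (−1.51 ± 0.34), CHAC1 (−1.43 ± 0.37) and ATF4 (−0.90 ± 0.16, adjusted p = 0.000102). By class, the averaged effect of MEK inhibitors was greater in PANC-1 for ATF4 (0.31 ± 0.10, adjusted p = 0.0261) and DDIT4 (1.63 ± 0.41), 2 of 10 beside 6.08% of all genes. That of ERK inhibitors was greater for ATF4 (0.38 ± 0.10, adjusted p = 0.00634), 1 of 10 beside 7.49%. These small counts lie near the shares over all genes, and the averages include trametinib and ulixertinib. For ATF4 the line difference was −0.01 to 0.19 with each other MEK inhibitor and −0.02 to 0.30 with each other ERK inhibitor, and none passed. For DDIT4 it was 0.56 to 1.92 with each other MEK inhibitor, and none passed.

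Other targets of ATF4 were counted in lists that were written with earlier results of these data known, and their direction is no independent support. In PANC-1 with the Vps34 inhibitor against HCQ, 7 of 15 genes of amino acid synthesis were higher, among them ASNS (asparagine synthetase, 1.73 ± 0.14), PSAT1 (serine synthesis, 0.93 ± 0.10), PHGDH (0.65 ± 0.11) and GOT1 (0.48 ± 0.08), with a list median of 0.65 against 0.005 over all genes. Of all genes tested in this comparison, 1.31% were called higher and 1.18% lower. Of 14 cytosolic tRNA synthetases, which charge tRNAs with amino acids, 7 were higher, GARS1 by 1.01 ± 0.14. Of 10 amino acid transporters 3 were higher, SLC7A5 by 0.60 ± 0.16, and of 24 other targets 8 were higher, PCK2 by 1.92 ± 0.21 and NIBAN1 by 1.70 ± 0.32. Of 20 genes of endoplasmic reticulum chaperones under ATF6 and XBP1, none was higher and 1, DNAJC3, was lower. Of 17 genes of the eIF2α kinases and eIF2 machinery 2 were lower, EIF2AK1 by 0.34 on the log2 scale and again DNAJC3, an inhibitor of such kinases, and none was higher.

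With trametinib in PANC-1, 9 of 15 synthesis genes, 11 of 14 tRNA synthetases, 3 of 10 transporters and 10 of 24 other targets were higher. Of all genes tested, 6.07% were called higher with trametinib and 7.49% lower. PSAT1 rose by 1.56 ± 0.09, PHGDH by 1.39 ± 0.10, CARS1 by 1.07 ± 0.11 and NIBAN1 by 2.55 ± 0.26, and 2 other targets were lower, among them GDF15, a stress cytokine, by 1.95 on the log2 scale. With ulixertinib the counts were 8, 9, 5 and 10 higher, with 1 transporter and 3 other targets lower, CDKN1A among them. Of all genes tested, 6.72% were called higher with ulixertinib and 7.88% lower. Chaperone genes counted 2 of 20 higher and 1 lower with trametinib, MANF by 0.78 on the log2 scale (adjusted p = 0.00976), with a list median of −0.04, and 4 higher and none lower with ulixertinib, with a median of 0.19. The chaperone counts with trametinib lay near the shares over all genes. HSPA5, the chaperone BiP, rose by 0.84 ± 0.09 with trametinib and 1.17 ± 0.09 with ulixertinib, and HERPUD1 by 1.04 ± 0.18 and 1.40 ± 0.18. Of 20 other transcription factors of the basic leucine zipper family, which pair with ATF4 or CHOP, 6 were higher with trametinib and 5 with ulixertinib, CEBPG by 0.95 ± 0.12 and 0.62 ± 0.12 and CEBPB by 1.01 ± 0.22 and 1.22 ± 0.22, and 1 was lower with each, JUN with trametinib and ATF5 with ulixertinib. All 13 ERK output genes measured fell with each drug, and the epithelial marker KRT18 fell with each, by 1.34 and 1.07 on the log2 scale.

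In AsPC-1 with the Vps34 inhibitor against HCQ, ASNS (0.76 ± 0.14) and PSAT1 (0.71 ± 0.17) were higher, 2 of 13 synthesis genes, while 4 of 22 other targets were lower, UPP1 by 0.96, ATF5 by 1.04, CDKN1A by 0.61 and MAP1LC3B by 0.54 on the log2 scale, and none higher. In the same comparison 5 of 13 ERK output genes were lower, EGR1 by 2.31 and FOSL1 by 0.76, and HSPA5 was higher by 0.64 ± 0.12. Of all genes tested there, 3.21% were called higher and 2.72% lower. With dabrafenib ASNS rose by 1.96 ± 0.13 and PSAT1 by 1.41 ± 0.15, and with PLX8394 by 1.97 ± 0.13 and 1.15 ± 0.16. PLX8394 also raised 4 of 14 tRNA synthetases, GARS1 by 0.80 ± 0.15, beside 0.36% of all genes. Dabrafenib raised 2 of 14, EPRS1 by 0.65 ± 0.13, beside 1.44% of all genes.

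Across the 30 treatment groups of each line the genes moved together to different degrees. The Pearson correlation of group means, centred within each plate, is a description over groups that hold different libraries on the same 2 plates and differ in depth. It had a median of 0.81 over the 45 gene pairs in PANC-1 and 0.32 in AsPC-1. In AsPC-1, CHAC1, ATF3 and NUPR1 had medians of 10, 12.5 and 11 counts per library, so their coefficients are imprecise there. The part of low counts in AsPC-1, or of groups such as trametinib and ulixertinib in PANC-1, in these medians was not tested. ATF4 and DDIT3 correlated at 0.91 in PANC-1 and 0.23 in AsPC-1. PPP1R15A correlated with DDIT3 at −0.11 in PANC-1 and 0.83 in AsPC-1, and with ATF4 at −0.15 and 0.09. Ranked by the lower of the coefficients in both lines, among 4631 genes with sufficient level, the genes most like ATF4 were PSAT1 (0.92 in PANC-1 and 0.75 in AsPC-1), MTHFD2, MARS1, EIF4EBP1 and YARS1. Those most like DDIT3 were MAP1LC3B (0.73 and 0.80), ZFAND2A, CEBPG, AARS1 and U2AF1L4. Those most like TRIB3 were DDIT3 (0.90 and 0.69), UPP1, MAP1LC3B, CEBPG and STYXL1, with 4632 genes ranked.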

How the data were processed

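Gene counts per library were deposited by the authors as 1 table of whole numbers for 136 PLATE-Seq libraries, 68 per line and 34 per plate and line. Per the submitters' processing notes kallisto 0.44.0 and GRCh38 were used, with roles not given in the sources used here. Those sources do not say how estimated counts became whole counts or whether strand was used. From the deposited counts, CPM was computed per library and used for levels. Tests used edgeR 4.0.16 (R 4.3.3), quasi-likelihood with robust estimation, TMM scaling and filterByExpr by treatment group, on 12627 genes in PANC-1 and 12761 in AsPC-1 with 30 treatment groups and a plate term (37 residual degrees of freedom). A fit of both lines over 13960 genes, with plate within line, tested differences between lines. P-values were Benjamini-Hochberg adjusted over all genes within each contrast, at 0.05. Class effects average the drugs of the class and both autophagy inhibitors, and errors beside log2 fold changes are standard errors. Plates come from the sample titles. Over all genes, plate deviations correlated little between groups, with a median of 0.054 over 435 group pairs in PANC-1 and 0.034 in AsPC-1. Single genes can still differ by plate, as ATF4 did in AsPC-1. The tests were also run on counts simulated in the PANC-1 layout, with the same spread for every gene and no plate effect. Spread that differs between genes and plate effects were not covered by that check. Promoters were taken from RefSeq and gene positions from GENCODE. DESeq2 1.42.0 was an alternative. The 10 genes and all lists were chosen with earlier results of these data known. The genes named from other lists are those with the smallest adjusted p in each list, at most 4 per list and comparison, and the genes named for likeness are the 5 with the highest lower correlation across group means of plate-centred log2 CPM (prior count 2, mean of at least 4).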

Additional observations from a re-analysis of the deposited data

Results flagged for a closer look

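Of 40 sets of 6 libraries, the 10 genes in each of 4 groups with an autophagy inhibitor alone, 2 held a library far from the others, where chance gives about 1 in 20. TRIB3 had 18.9 CPM in replicate 1 of HCQ alone in AsPC-1, against 9.33 to 11.4 CPM in the other 5, and ADM2 had 2.49 CPM in replicate 6 of HCQ alone in PANC-1, against 3.89 to 4.45 CPM.

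The other results here are differences in log2 fold change, PANC-1 minus AsPC-1, that passed the test of the difference itself. For the Vps34 inhibitor against HCQ alone they were 0.881 for ATF4, 1.017 for DDIT3, 1.661 for TRIB3, 1.801 for CHAC1, 2.662 for SESN2 and 1.384 for ADM2. For MEK inhibitors they were 0.31 for ATF4 and 1.629 for DDIT4, and for ERK inhibitors 0.377 for ATF4. For trametinib they were 1.037 for ATF4, 1.044 for DDIT3, 1.252 for TRIB3, 3.053 for DDIT4, 1.415 for SESN2 and 2.041 for NUPR1. For ulixertinib they were 1.06 for ATF4, 2.239 for TRIB3, 1.669 for CHAC1 and 2.287 for DDIT4. For dabrafenib they were −0.899 for ATF4, −1.426 for CHAC1 and −1.514 for ADM2. RAF709 gave 1.127 for TRIB3 and AZD0364 −1.5 for ADM2. Within PANC-1, the effect of sorafenib on ATF3 differed between the Vps34 inhibitor and HCQ by 3.759.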

How the results depend on the processing

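Of 1230 recomputed gene values, 1117 kept their direction and their side of the threshold, 112 kept the direction but no longer passed, and 1 turned, CHAC1 with MEK inhibitors in PANC-1 without trametinib (−0.02). Causes were not tested, except that single-plate fits, fits without a replicate and fits without a drug use fewer libraries. Single-plate fits also took the drugs of a class as replicates, so differences between drugs counted as spread there. In AsPC-1 the number of the 10 genes lower with the Vps34 inhibitor alone was 3, and 1 on plate A and 1 on plate B; higher with RAF inhibitors it was 3, against 1 on plate A, 0 on plate B, 1 without dabrafenib and PLX8394, and 1 without either replicate of every combination; higher with ERK inhibitors it was 3, against 1 on plate B and 1 to 3 without a replicate. Single combinations gave 22 higher, and 4 to 6 without a replicate of every combination, and 2 lower, with 1 under no replicate block or no robust estimation and 0 to 2 without a replicate or a library alone. Drug averages gave 24 higher and 6 to 13 without a replicate of every combination, and 2 lower, with 1 under no replicate block and 0 to 2 without a replicate or library. Drugs against the rest of their class gave 7 higher, and 3 with no replicate block. Under the classes 14 were lower, and 9 without a replicate.

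In PANC-1 the number higher with the Vps34 inhibitor alone was 6, and 0 on each plate; with MEK inhibitors 6, against 1 on plate A, 2 on plate B, 3 without trametinib and 3 to 6 without a replicate; with ERK inhibitors 8, against 0 on plate A, 1 on plate B, 3 without ulixertinib and 4 to 8 without a replicate; with RAF inhibitors 0, against 1 without dabrafenib and PLX8394 (NUPR1, 0.54), and 0 to 1 lower when a library alone was left out, the 1 without Vps34 inhibitor replicate 4. Single combinations gave 49 higher, and 24 to 25 without a replicate of every combination, and 2 lower, with 1 under no filter or DESeq2 and 0 to 2 without a replicate or library. Drug averages gave 33 higher, and 19 to 20 without a replicate of every combination. Drugs against the rest of their class gave 9 lower, and 5 under no filter or no replicate block. The block by plate changed no other count by over 1.5 times among these; without it, DDIT4 was not called with dabrafenib or PLX8394. ATF3 with MEK inhibitors in PANC-1 was not called without Vps34 inhibitor replicate 2 (0.50) or 4 (0.44), HCQ replicate 3 (0.50) or the filter. Between lines, the genes with a greater MEK effect in PANC-1 were 2, with 1 under no replicate block and 0 to 1 without a replicate; for ERK inhibitors 1, with 0 to 1 without a replicate; and DESeq2 called 1 gene lower for RAF inhibitors, against 0. The response element core TGATGNAA stood in 2 promoters, and its form TGATGCAA in 1. Over all genes the Vps34 inhibitor against HCQ called 314 in PANC-1, 119 to 122 without a replicate of every combination, 140 when the alone libraries were fitted by themselves, and 6 and 3 on single plates, and 757 in AsPC-1, 98 and 21 on single plates. Comparisons that hold no alone library and differences between lines were not refitted without single alone libraries. Low counts of CHAC1, ATF3 and NUPR1 limit AsPC-1, and low counts of ATF3 also limit PANC-1.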
